A study of Mus musculus with 12 samples.

Results

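Fgf21 and 5 other secreted or stress-linked liver factors were described across genotype and treatment in mouse liver. The 6 genes were Fgf21, Igfbp1, Igfbp2, Angptl4, Gdf15 and Inhbe. A gene was represented by the probe set whose annotation named it alone, and, where several did, by the one with the highest mean over 12 arrays. By this rule 5 of the 6 were found among 18193 genes, and Gdf15 was not analysed here. The genes were selected on measured values of these same arrays, among them the higher Fgf21 level with CDDO-Im in wild type livers, and the mean chose the probe set, so neither is a finding. Angptl4 had a second probe set, which averaged 3.54 against 10.17 for the chosen one, below the array medians of 5.77 to 5.83 on all 12 arrays. All values below are log2 intensities, and differences are differences of log2 intensities.

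The liver RNA of male mice was read on 12 single-colour arrays. There were 4 groups of 3 arrays: Nrf2 null mice given CDDO-Im, Nrf2 null mice given vehicle, wild type mice given CDDO-Im and wild type mice given vehicle. CDDO-Im is a synthetic triterpenoid that activates Nrf2, a transcription factor of antioxidant and detoxification genes encoded by Nfe2l2. It was given by gavage at a labelled dose of 30 uM/kg, livers were taken at 6 hours, and all 4 groups share sex, route and time. Strain, age and the null allele are not named in the labels, nor whether each array was a separate animal, so p-values measure the spread between these arrays. The vehicle titles carry a bracketed mark that no CDDO-Im title carries, and whatever it stands for cannot be told apart from the compound.

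FGF21 is a hormone that the liver releases on fasting and under stress. It acts on fat and brain through an FGF receptor joined to the co-receptor beta-Klotho, and PPARalpha and ATF4 are known to switch on its gene. IGFBP1 and IGFBP2 bind insulin-like growth factors in blood, and insulin is known to lower hepatic Igfbp1. ANGPTL4 inhibits lipoprotein lipase and is a target of PPAR receptors, and Inhbe encodes the subunit of activin E, a liver member of the TGF-beta family.

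The libraries were checked before the members were read. Nfe2l2 read between 4.44 and 4.96 on the 6 Nrf2 null arrays, below the array medians, and between 8.37 and 9.14 on the 6 wild type arrays. All 7 measured hepatocyte markers averaged between 11.82 and 14.41. Of 10 marker lists, that of pancreatic acinar cells moved most between arrays. Of its 13 genes 10 were measured, and their median deviation from the mean of 12 arrays was 1.78 in Nrf2 null vehicle replicate 2 and 3.39 in wild type vehicle replicate 3, against -0.66 to -0.43 on the other 10 arrays. Over the other lists this median stayed between -0.68 and 0.53. Both ends were of the Kupffer cell list, in Nrf2 null vehicle replicate 2 and wild type vehicle replicate 1. For adipocytes it stayed between -0.18 and 0.08.

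The adipocyte list, with 6 of 8 genes measured, moved with treatment in its summed level through a single gene. The log2 of its summed level was 8.82 to 9.27 on the 6 CDDO-Im arrays, against 9.66 to 12.09 on the 6 vehicle arrays. Fabp4, a lipid carrier known from fat cells and macrophages, read 6.22, 5.64 and 6.10 in Nrf2 null with CDDO-Im and 11.87, 11.94 and 11.37 in Nrf2 null with vehicle. It read 7.29, 6.33 and 7.53 in wild type with CDDO-Im and 11.91, 11.88 and 8.55 in wild type with vehicle. Wild type vehicle replicate 3 thus lay closer to the CDDO-Im arrays than the other 5 vehicle arrays did. Adipoq, which encodes the adipocyte hormone adiponectin, lay below the array medians on all 12 arrays (4.05 to 5.30), and the other 4 genes of the list overlapped between treatments. The part of Fabp4 in the results was not tested. In whole liver, fewer cells of a type and less RNA per cell cannot be told apart.

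The promoter windows of Fgf21 and Inhbe are shown because they share the same letters, and that of Gclm because it is one of the 3 genes most like Fgf21 and holds antioxidant response letters, all 3 picked after the matches were seen. Ugt2b35, which was as close to Fgf21 by r, held only a FOXO match, at -231. RefSeq held windows for 5 of the 6 members, from 250 bases before to 50 after the annotated start (GRCm38.p6). Capitals mark matches to any of 7 short motifs, searched on both strands. In Fgf21 (chr7:45615441-45615740, minus strand) they are TTGCATCA at -139, the reverse of the CARE letters TGATGNAA that ATF4 and C/EBP factors are known to bind, and the E-box CACGTG at -50. Inhbe (chr10:127351799-127352098, minus strand) has the same TTGCATCA at -181. In Gclm (chr3:122245307-122245606, plus strand) they are the reverse of the antioxidant response letters TGACNNNGC at -134 and the letters TGTTCT, one arm of a glucocorticoid receptor site, at -54.
Fgf21: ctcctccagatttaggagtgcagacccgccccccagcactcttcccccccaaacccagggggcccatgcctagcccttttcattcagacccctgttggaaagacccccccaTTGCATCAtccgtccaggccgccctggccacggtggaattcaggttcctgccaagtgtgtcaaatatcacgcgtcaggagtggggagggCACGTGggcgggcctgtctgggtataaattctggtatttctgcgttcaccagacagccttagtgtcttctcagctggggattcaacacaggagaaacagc
Inhbe: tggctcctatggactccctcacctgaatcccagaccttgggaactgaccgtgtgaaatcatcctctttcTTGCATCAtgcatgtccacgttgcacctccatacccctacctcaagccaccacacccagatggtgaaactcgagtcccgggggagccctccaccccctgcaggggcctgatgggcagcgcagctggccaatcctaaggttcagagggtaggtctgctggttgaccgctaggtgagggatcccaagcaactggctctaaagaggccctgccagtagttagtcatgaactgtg
Gclm: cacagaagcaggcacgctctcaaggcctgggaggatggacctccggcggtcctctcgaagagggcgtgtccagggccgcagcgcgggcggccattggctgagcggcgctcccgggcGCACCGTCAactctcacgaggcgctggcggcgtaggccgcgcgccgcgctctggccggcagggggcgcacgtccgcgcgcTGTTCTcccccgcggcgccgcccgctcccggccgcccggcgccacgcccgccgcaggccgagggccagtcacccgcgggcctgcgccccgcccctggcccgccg

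Of 32851 windows of this length, 3.97% held the CARE letters, 12.4% the antioxidant response letters, 7.15% the E-box and 19% the letters TGTTCT. No match to TGACNNNGC was found in the Fgf21, Igfbp1 or Inhbe window, while the second of the Igfbp2 windows had one at 23. The first Igfbp2 window held the E-box at -142 and the reverse of TGTTCT at -206, and the Igfbp1 window held none of the 7 motifs. The window of Nqo1, a quinone reductase gene read as a check of the compound, held none of them either. The FOXO letters GTAAACA (3.65% of windows), the CRE letters TGACGTNA (2.93%) and a PPAR direct repeat (0.381%) were not found in the windows of the 4 measured members that had one. A match, or the lack of one, is a description of letters in these windows only.

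Fgf21 was higher on each wild type CDDO-Im array than on any other array. The 3 Nrf2 null CDDO-Im arrays read 6.88, 7.17 and 7.40, and the 3 Nrf2 null vehicle arrays 6.56, 7.17 and 7.74. The 3 wild type CDDO-Im arrays read 9.23, 10.31 and 10.20, and the 3 wild type vehicle arrays 8.11, 8.01 and 7.93. The lowest wild type CDDO-Im array lay above the highest of the other 9, and the 6 Nrf2 null arrays all lay below the 6 wild type arrays. The order of the group means was 9.91 ± 0.60 for wild type with CDDO-Im, 8.02 ± 0.09 for wild type with vehicle, and 7.15 ± 0.26 and 7.15 ± 0.59 for Nrf2 null with CDDO-Im and with vehicle (SD, n = 3 each). The last 2 groups overlapped, and their means did not differ beyond that spread.

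In wild type livers Fgf21 was higher by 1.89 ± 0.30 with CDDO-Im (SE), a 3.72-fold difference. This difference was known when the genes were chosen, so it is given with no test. In Nrf2 null livers the same difference was 0.00 ± 0.30, with a 95% interval of -0.66 to 0.66 (limma adjusted p = 0.999). Under CDDO-Im, Fgf21 was 6.78-fold lower in Nrf2 null than in wild type livers (-2.76 ± 0.30, adjusted p = 0.000535). The difference of the compound's effects, Nrf2 null minus wild type, was -1.90 ± 0.43, with an interval of -2.83 to -0.96. It holds the known wild type difference and is likewise given with no test. The value between genotypes under CDDO-Im shares the wild type CDDO-Im arrays with the known difference, so its p is not independent of that choice.

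Without the compound, Fgf21 was also lower in Nrf2 null livers, by -0.86 ± 0.30, a 1.82-fold difference with no overlap between the groups. It did not pass the test (adjusted p = 0.242). With array weights it did (-0.96, adjusted p = 0.0325), a setting that called 1477 genes or 8.12% here, against 71 genes or 0.39% without weights. Over all genes 17% did not overlap between these groups. The interval of the difference was -1.52 to -0.20.

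**Figure D1:**
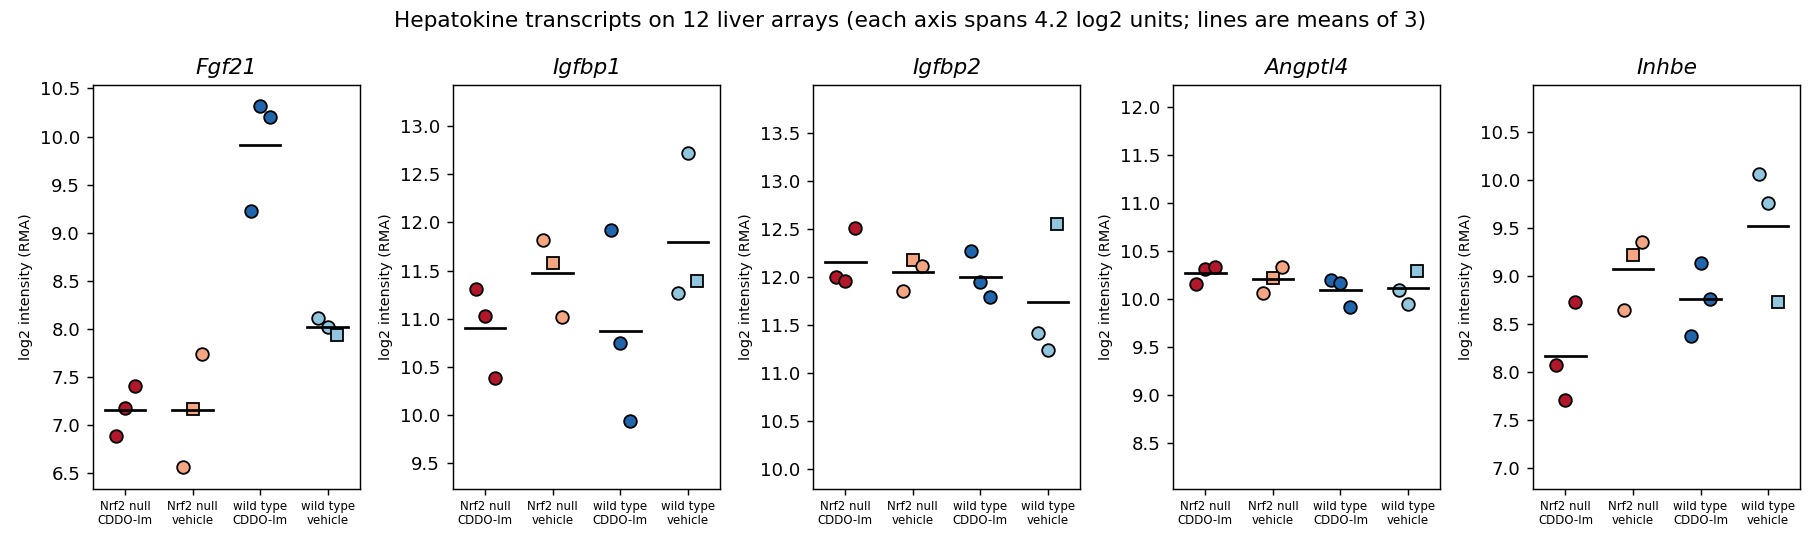
Log2 intensities (vertical axes, log2 scale) of 5 hepatokine genes on each of 12 arrays, by group, with the mean of 3 arrays as a line. Squares are the 2 arrays with acinar transcripts, wild type vehicle replicate 3 and Nrf2 null vehicle replicate 2. Only Fgf21 has a group, wild type with CDDO-Im, above all other arrays. Its higher level with CDDO-Im in wild type was known when the genes were chosen.

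Inhbe had lower mean readings with CDDO-Im in both genotypes, and neither difference passed the test. Its values were 8.08, 7.71 and 8.73 on the Nrf2 null CDDO-Im arrays and 8.65, 9.22 and 9.35 on the Nrf2 null vehicle arrays. On the wild type CDDO-Im arrays they were 8.38, 9.14 and 8.76, and on the wild type vehicle arrays 10.07, 9.76 and 8.73. The groups overlapped in both genotypes, in wild type through vehicle replicate 3 and in Nrf2 null through CDDO-Im replicate 3 and vehicle replicate 1. The difference was -0.90 ± 0.35 in Nrf2 null (1.87-fold, adjusted p = 0.169) and -0.76 ± 0.35 in wild type (1.69-fold, adjusted p = 0.366). Between the genotypes these effects differed by -0.14, with an interval of -1.21 to 0.93. Nrf2 null livers differed from wild type by -0.59 with CDDO-Im (adjusted p = 0.614) and -0.45 with vehicle (adjusted p = 0.636).

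Wild type vehicle replicate 3, the array with the highest acinar median, decided the wild type value of Inhbe. Without it Inhbe fell by 1.16 in wild type livers with CDDO-Im and passed (adjusted p = 0.0341). With both acinar arrays left out the value was -1.16 (adjusted p = 0.0468), and with array weights -1.16 (adjusted p = 0.0226). These 3 settings called 7.61%, 7.11% and 11.1% of all genes in wild type, against 1.82% with all arrays. In Nrf2 null livers Inhbe did not pass under any alternative, with values from -1.18 to -0.67 and adjusted p from 0.0567 to 0.412. The part of the acinar transcripts and of Fabp4, which was also lowest among vehicle arrays in that replicate, was not tested.

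The binding proteins of insulin-like growth factors did not pass in any of the 5 comparisons with all arrays. Igfbp1 spread widely within the wild type groups. It read 11.31, 11.03 and 10.38 on the Nrf2 null CDDO-Im arrays and 11.82, 11.58 and 11.02 on the Nrf2 null vehicle arrays. The wild type CDDO-Im arrays read 11.92, 10.75 and 9.94, and the wild type vehicle arrays 11.27, 12.72 and 11.39. The highest of the CDDO-Im arrays thus lay inside the vehicle range. Differences with CDDO-Im were -0.57 ± 0.48 in Nrf2 null (interval -1.62 to 0.49) and -0.92 ± 0.48 in wild type (interval -1.98 to 0.13). Their adjusted p were 0.604 and 0.454. Between genotypes Igfbp1 differed by 0.04 with CDDO-Im (interval -1.02 to 1.09) and -0.32 with vehicle (interval -1.38 to 0.73).

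Igfbp2 varied less, with a range of 1.32 over the 12 arrays against 2.78 for Igfbp1. It read between 11.95 and 12.50 on the Nrf2 null CDDO-Im arrays and between 11.86 and 12.18 on the Nrf2 null vehicle arrays. The wild type CDDO-Im arrays read 12.27, 11.94 and 11.79, and the wild type vehicle arrays 11.42, 11.24 and 12.55. The highest of all 12 values was wild type vehicle replicate 3, close to the 12.50 of Nrf2 null CDDO-Im replicate 3. Wild type vehicle replicates 1 and 2 lay below every other array. Igfbp2 differed with CDDO-Im by 0.10 ± 0.28 in Nrf2 null and 0.26 ± 0.28 in wild type (adjusted p = 0.899 and 0.795). Without wild type vehicle replicate 3 it rose by 0.67 in wild type (adjusted p = 0.0409), and without both acinar arrays the value was 0.67 (adjusted p = 0.0518). Between genotypes it differed by 0.15 with CDDO-Im and 0.31 with vehicle (adjusted p = 0.931 and 0.70).

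Angptl4 was nearly flat. Its 12 values lay between 9.92 and 10.34, with group means of 10.27 ± 0.10 in Nrf2 null with CDDO-Im, 10.20 ± 0.14 in Nrf2 null with vehicle, 10.09 ± 0.15 in wild type with CDDO-Im and 10.11 ± 0.17 in wild type with vehicle (SD, n = 3 each). The difference with CDDO-Im was 0.07 (interval -0.18 to 0.31) in Nrf2 null and -0.02 (interval -0.26 to 0.22) in wild type. Between genotypes it was 0.18 with CDDO-Im (interval -0.07 to 0.42) and 0.09 with vehicle (interval -0.15 to 0.33). The intervals of these 4 differences reach no further than 0.42 from 0. The dimmer probe set gave -0.05 with CDDO-Im in Nrf2 null, and leaving out both acinar arrays gave 0.07 in wild type, so neither has a settled sign.

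Of the members, limma called 0 of 5 with CDDO-Im in Nrf2 null, where 5.9% of all genes were called, and 0 of the 4 other than Fgf21 in wild type, where 1.82% were. Inhbe alone had an unadjusted p under 0.05 in each, 0.024 and 0.0498, as had 19.4% and 13.6% of all genes. Under CDDO-Im 1 of 5, Fgf21, was called between the genotypes, as lower in Nrf2 null. This call shares arrays with the known wild type difference of Fgf21 and is not independent of it. In this comparison 1.45% of all genes were called, 0.824% as lower and 0.621% as higher, and 11.3% had an unadjusted p under 0.05. With vehicle 0 of 5 were called by limma (0.39% of all genes, 0.275% lower and 0.115% higher), and Fgf21 alone had an unadjusted p under 0.05 (13.2%). For the difference of the effects 0 of the 4 other than Fgf21 were called by limma (0.137%, with 0.126% lower and 0.011% higher), and 0 had an unadjusted p under 0.05 (7.1%). No member but Fgf21 was without overlap between any 2 of the groups compared, where 23.1% and 16.6% of all genes did not overlap with CDDO-Im in Nrf2 null and in wild type, and 16.8% and 17% between genotypes with CDDO-Im and with vehicle. The median difference of the 5 members was 0.00 in Nrf2 null and -0.02 in wild type, beside 0.00 and 0.01 over all genes. Without both acinar arrays 1 of the 4, Inhbe, was called in wild type, where 7.11% of all genes then were.

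**Figure D2:**
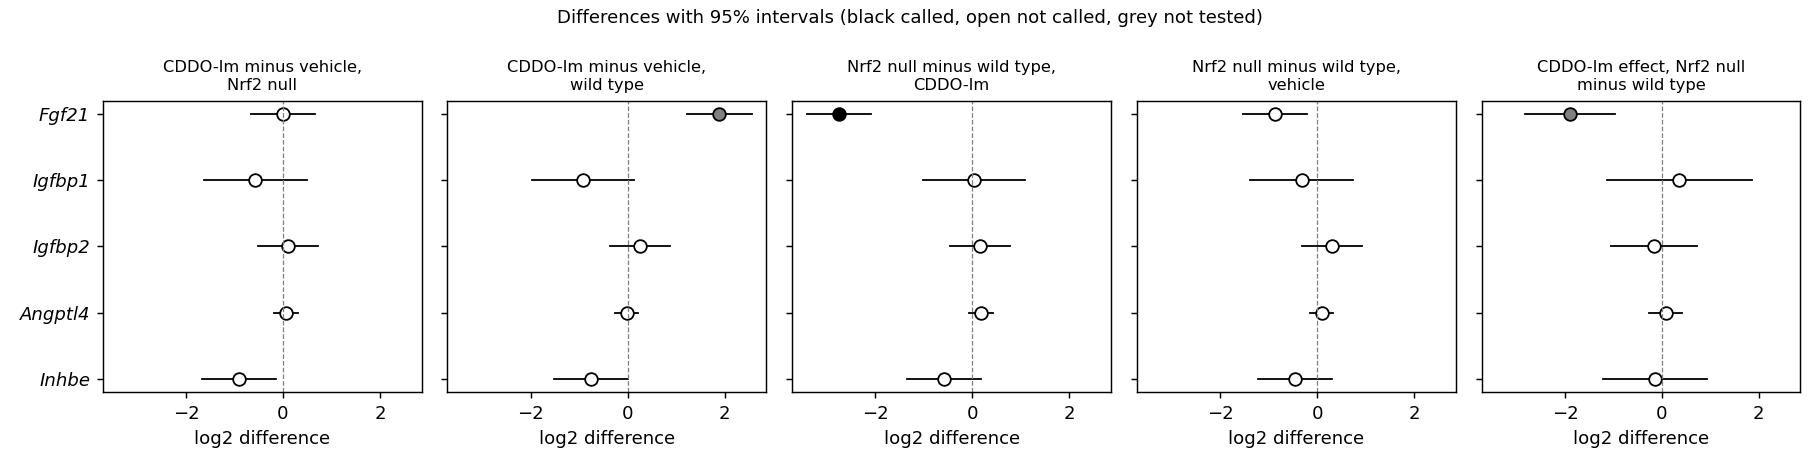
Log2 differences (horizontal axes) of 5 hepatokine genes in 5 comparisons, with 95% intervals of the linear model as lines. Fgf21 lies at -2.76 between genotypes under CDDO-Im, the single called value (black), and at 1.89 with CDDO-Im in wild type and -1.90 for the difference of the effects (grey, not tested), while Angptl4 stays near 0 in all 5. The called value shares the wild type CDDO-Im arrays with the wild type difference of Fgf21 that was known beforehand.

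The members did not vary as a group over the arrays. Igfbp2 and Angptl4 were the closest pair (Pearson r = 0.76, Spearman rho = 0.79 over 12 arrays), also as deviations from group means (r = 0.77). Fgf21 and Igfbp1 had r = -0.36 over all arrays and -0.70 as deviations. Igfbp2 and Inhbe had r = -0.50 over all arrays and -0.38 as deviations. The other 7 pairs lay between -0.35 and 0.22 over all arrays. As deviations they lay between -0.29 and 0.61, the highest being Fgf21 and Inhbe. These 10 correlations come from the same 12 arrays, scaled together, and are a description.

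Over 2037 genes that spanned at least 1 log2 unit, those most like Fgf21 were Gclm, Ugt2b35 and Slc25a37, each at r = 0.95, with rho of 0.89, 0.93 and 0.99. Gclm encodes the modifier subunit of glutamate-cysteine ligase, Ugt2b35 a glucuronosyltransferase and Slc25a37 a mitochondrial iron importer. As deviations from group means the r values were 0.75, 0.48 and 0.68, and without the 2 arrays farthest from the median of Fgf21 they were 0.88, 0.89 and 0.94. Ugt2b35 read 10.72 ± 0.08 in Nrf2 null with CDDO-Im, 10.45 ± 0.25 in Nrf2 null with vehicle, 12.88 ± 0.09 in wild type with CDDO-Im and 11.08 ± 0.27 in wild type with vehicle (SD, n = 3 each). Gclm differed with CDDO-Im by 0.23 in Nrf2 null (adjusted p = 0.204) and rose by 0.94 in wild type (adjusted p = 0.000309). The difference of its effects was -0.71 and did not pass (adjusted p = 0.133). Under CDDO-Im, Slc25a37 was lower in Nrf2 null than in wild type by -1.26 (adjusted p = 0.00484). These 3 genes were picked for likeness to Fgf21 on the same arrays, so their p-values are not independent of that choice.

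The genes most like Inhbe were Fabp2, a fatty acid binding protein, Cacfd1, and Lman1, a receptor that carries glycoproteins from the endoplasmic reticulum towards the Golgi, each at r = 0.94. As deviations from group means they stood at 0.88, 0.94 and 0.94. All 3 read lowest among the wild type vehicle arrays in replicate 3, as Inhbe did. Lman1 fell by 0.69 with CDDO-Im in Nrf2 null (adjusted p = 0.019) and differed by -0.44 in wild type (adjusted p = 0.164). Lman1 was picked for likeness on the same arrays, so these p-values are not independent of that choice. The call of Lman1 ended in 4 of 12 cases when 1 array was left out (adjusted p up to 0.075, without Nrf2 null CDDO-Im replicate 2), and its dimmest probe set differed by -0.02.

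Likeness was weaker for the other members. Tpd52, Grn and Zfp281 stood closest to Igfbp1 (r = 0.79, 0.76 and 0.74), and without the 2 arrays farthest from its median these values were 0.49, 0.57 and 0.36, so they rest on those arrays. Gstm7, a glutathione S-transferase, Aadat, an aminotransferase, and Acy3, an aminoacylase, stood closest to Igfbp2 (r = 0.82, 0.82 and 0.81). Slc15a4, a lysosomal peptide transporter, Cfap20 and Hoga1 stood closest to Angptl4 (r = 0.83, 0.80 and 0.79).

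**Figure D3:**
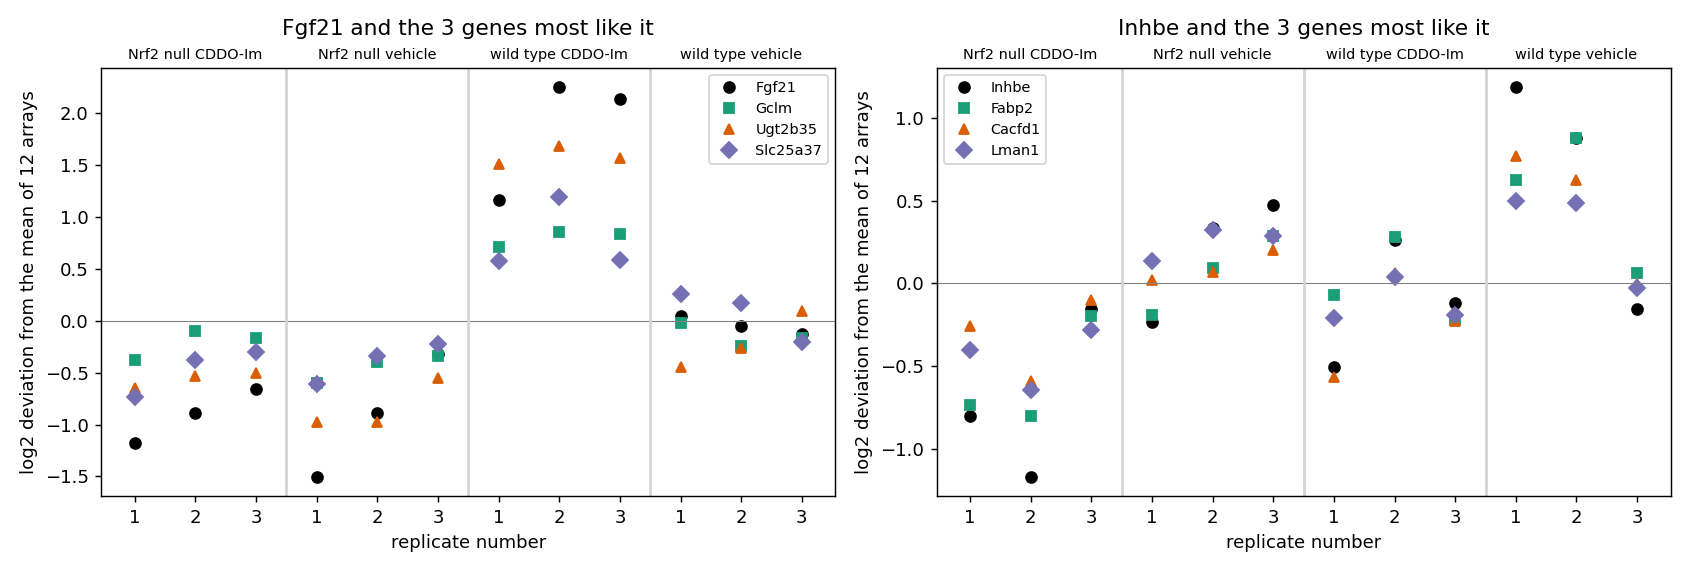
Log2 deviation of each array from the mean of 12 arrays (vertical axis) for Fgf21 and Inhbe and the 3 genes most like each, by group and replicate number (horizontal axis). In the left panel the wild type CDDO-Im arrays lie above all others for each of the 4 genes, and in the right panel wild type vehicle replicate 3 lies below the other wild type vehicle arrays.

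Factors reported to act upstream of these genes were read next, on lists chosen with earlier results of these data known. With CDDO-Im 3.58% of all genes were called higher and 2.32% lower in Nrf2 null, and 0.978% higher and 0.846% lower in wild type. Ppara, the fasting receptor of lipid breakdown, read 10.74 ± 0.27 in Nrf2 null with CDDO-Im, 9.52 ± 0.45 in Nrf2 null with vehicle, 10.50 ± 0.21 in wild type with CDDO-Im and 10.65 ± 0.09 in wild type with vehicle (SD, n = 3 each). It rose by 1.22 with CDDO-Im in Nrf2 null (adjusted p = 0.0106, and 0.0546 without Nrf2 null CDDO-Im replicate 3) and differed by -0.14 in wild type (adjusted p = 0.853). The part of Ppara in the Fgf21 levels was not tested. Without the compound Ppara was lower in Nrf2 null by -1.13 (adjusted p = 0.0414), a call that ended in 7 of 12 cases when 1 array was left out (adjusted p up to 0.158, without wild type vehicle replicate 1). Atf4 fell by 0.45 with CDDO-Im in Nrf2 null (adjusted p = 0.0248) and differed by 0.07 in wild type (adjusted p = 0.865), and the Nrf2 null call ended in 5 of 12 cases (adjusted p up to 0.109). Its dimmest probe set differed by -0.12 there. For the difference of the effects Ppara had 1.37 (adjusted p = 0.167) and Atf4 -0.51 (adjusted p = 0.352), and neither passed. Of 28 such factors 2 rose and 3 fell in Nrf2 null, and 0 rose and 1 fell in wild type, namely Egr1, an early response factor, at -1.69 (adjusted p = 0.0324). The wild type call of Egr1 ended in 5 of 12 cases (adjusted p up to 0.164). Egr1 also fell in Nrf2 null, at -1.64 (adjusted p = 0.0209), a call that ended in 4 of 12 cases (adjusted p up to 0.0923). Its effects differed between genotypes by 0.05 (adjusted p = 0.996). Xbp1, a factor of the unfolded protein response, fell by 1.01 in Nrf2 null (adjusted p = 0.00709), and its dimmest probe set differed by -0.68 there (adjusted p = 0.0656). In wild type Xbp1 differed by -0.59 (adjusted p = 0.0713). The difference of its effects was -0.42 and did not pass (adjusted p = 0.753).

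Among 31 targets of ATF4 and CHOP, Shmt2 alone rose and Atf4 itself alone fell in Nrf2 null, and 0 were called in wild type by limma, where 3 had an unadjusted p under 0.05. The Shmt2 call ended in 5 of 12 cases when 1 array was left out (adjusted p up to 0.136), and its dimmest probe set differed by 0.16. The list's median was -0.11 in Nrf2 null and -0.05 in wild type. Without both acinar arrays 1 rose and 5 fell in each genotype, where 6.35% of all genes were called in Nrf2 null and 7.11% in wild type. Targets of PPARalpha rose in 7 of 30 cases in Nrf2 null, with Acaa1b, a peroxisomal thiolase, at 2.25 and Aldh3a2, a fatty aldehyde dehydrogenase, at 2.04, and none fell. The calls of Acaa1b and Aldh3a2 each ended without Nrf2 null CDDO-Im replicate 3 (adjusted p = 0.0546 and 0.0551). In wild type these 2 genes also had higher means with CDDO-Im, by 1.32 and 1.47, which did not pass (adjusted p = 0.12 and 0.0619). In limma 12 of the 30 in Nrf2 null and 8 in wild type had an unadjusted p under 0.05, as had 19.4% and 13.6% of all genes. In wild type 1 of 30 rose, Pex11a, a peroxisome division protein, by 1.19 (adjusted p = 0.00797), and it also rose by 0.93 in Nrf2 null, a call that ended in 3 of 12 cases (adjusted p up to 0.0825). The medians of that list were 0.28 in Nrf2 null and 0.12 in wild type, and without both acinar arrays 10 and 5 rose, at the shares of all genes just given. Whether these counts differ between genotypes was not tested as a list, and 0 of the 30 passed for the difference of the effects, with 1 at an unadjusted p under 0.05.

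Genes that answer insulin and FOXO1 had 3 of 18 raised in Nrf2 null and 0 called in wild type by limma, with 4 in each at an unadjusted p under 0.05. G6pc, the last enzyme of glucose release, rose by 2.01 in Nrf2 null (adjusted p = 0.0162, and up to 0.0671 without Nrf2 null CDDO-Im replicates 2 or 3 in turn) and differed by -0.02 in wild type (adjusted p = 0.99). The difference of its effects was 2.03 and did not pass (adjusted p = 0.352). In Nrf2 null G6pc read 11.22 ± 0.31 with CDDO-Im and 9.21 ± 0.67 with vehicle (SD, n = 3 each). In wild type it read 10.74 ± 0.71 and 10.76 ± 0.53. Between genotypes G6pc differed by 0.48 with CDDO-Im and -1.55 with vehicle (adjusted p = 0.772 and 0.126). Glucocorticoid-responsive genes had 1 raised and 1 lowered of 14 in each genotype. Lcn2, an acute phase protein, fell by 4.43 in Nrf2 null (adjusted p = 0.048) and fell by 5.38 in wild type (adjusted p = 0.0429), and each call ended in 9 of 12 cases (adjusted p up to 0.146 and 0.19). Tdo2, a tryptophan-degrading enzyme, rose by 0.56 in wild type (adjusted p = 0.0429), and this call ended in 7 of 12 cases (adjusted p up to 0.183).

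Of 28 receptors and binding partners of the members, 1 rose and 2 fell in Nrf2 null, and 0 were called in wild type by limma, where 4 had an unadjusted p under 0.05. Klb, which encodes beta-Klotho, the co-receptor of FGF21, read 8.59, 8.80 and 8.78 in Nrf2 null with CDDO-Im and 8.04, 8.30 and 8.11 in Nrf2 null with vehicle, a rise of 0.58 (adjusted p = 0.0469). The dimmest probe sets of Klb, Fgfr4 and Acvr1b differed by -0.15, -0.05 and 0.00 there. Fgfr4, the main FGF receptor of hepatocytes, fell by 0.44 (adjusted p = 0.0416), and Acvr1b, an activin receptor, by 0.71 (adjusted p = 0.0287). These 3 calls ended in 9, 10 and 5 of 12 cases when 1 array was left out, with adjusted p up to 0.16, 0.113 and 0.103.

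Among 26 relatives of the members 3 rose in Nrf2 null and 1 in wild type, and none fell. Igfals, the subunit that holds insulin-like growth factors and IGFBP3 in a circulating complex, rose 2.96-fold in Nrf2 null (1.57 ± 0.22, adjusted p = 0.00666) and differed by 0.36 in wild type (adjusted p = 0.567). Its arrays read 10.26, 10.51 and 10.84 in Nrf2 null with CDDO-Im, against 8.76, 8.93 and 9.23 with vehicle. Igfbp3 rose by 0.91 in Nrf2 null (adjusted p = 0.011), a call that ended without Nrf2 null CDDO-Im replicate 3 (adjusted p = 0.0546), and differed by 0.49 in wild type (adjusted p = 0.146). Neither effect passed for the difference between genotypes, with 1.21 for Igfals (adjusted p = 0.302) and 0.42 for Igfbp3 (adjusted p = 0.761). Angptl6 rose by 0.53 in Nrf2 null, and its call ended in 6 of 12 cases.

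Bmp6, a BMP ligand of the liver, was the relative that rose in wild type, by 0.90 (adjusted p = 0.00968). It read 6.81, 6.67 and 6.68 with CDDO-Im and 5.56, 5.73 and 6.18 with vehicle. On 2 of the wild type vehicle arrays it lay below the array medians, so the size is uncertain. Leaving out wild type vehicle replicates 1 or 2 ended the call (adjusted p up to 0.0541). In Nrf2 null Bmp6 differed by 0.41 (adjusted p = 0.137), with all 3 vehicle arrays below the array medians. The difference of its effects was -0.49 and did not pass (adjusted p = 0.668). Of 27 other secreted liver factors 4 rose and 3 fell in Nrf2 null, and 0 rose and 2 fell in wild type. Serpina6, the cortisol carrier, rose by 3.11 and Ghr, the growth hormone receptor, by 1.21 in Nrf2 null. Each call ended in 4 of 12 cases (adjusted p up to 0.0779 and 0.0706). In wild type Serpina6 differed by 1.98 and Ghr by 0.34 (adjusted p = 0.15 and 0.609). The differences of their effects were 1.13 and 0.87 and did not pass (adjusted p = 0.869 and 0.605). Manf, a factor secreted on endoplasmic reticulum stress, fell by 2.61 in Nrf2 null (adjusted p = 0.0054) and by 1.65 in wild type (adjusted p = 0.0402), and the wild type call ended in 10 of 12 cases (adjusted p up to 0.193). Without both acinar arrays 4 of these factors rose and 1 fell in Nrf2 null, and 3 rose and 7 fell in wild type, at 6.35% and 7.11% of all genes called.

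**Figure D4:**
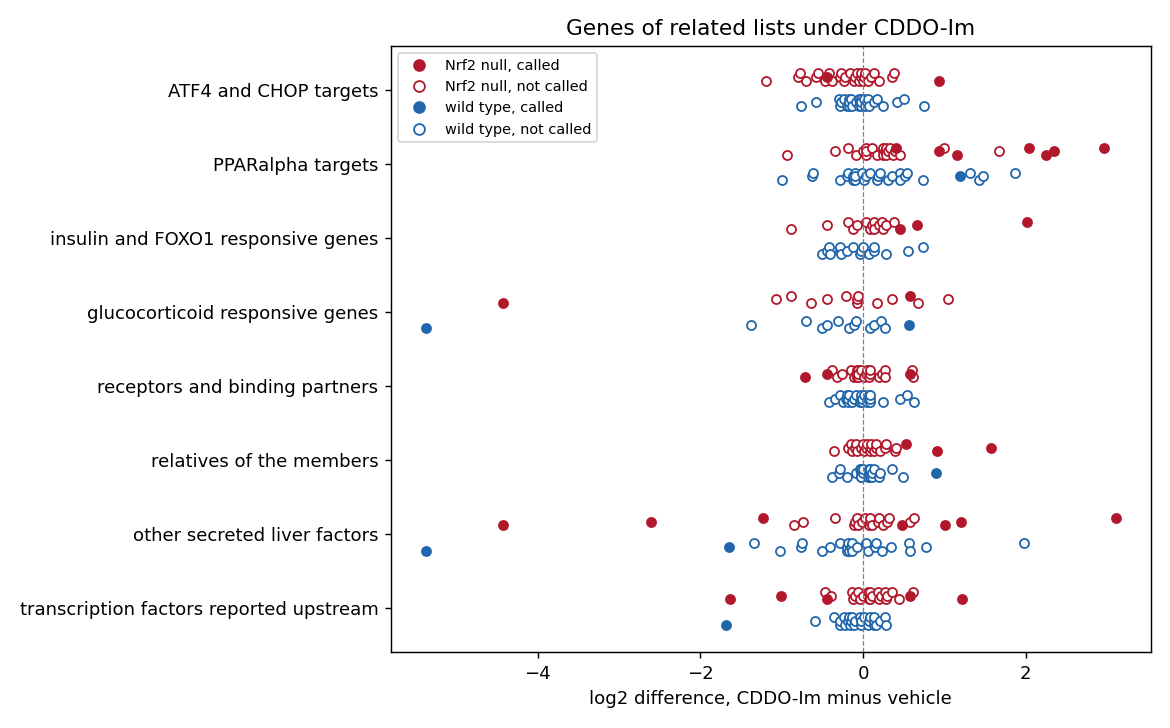
Log2 difference with CDDO-Im (horizontal axis) of each gene of 8 lists, in Nrf2 null (red, upper row) and wild type (blue, lower row) livers, filled where called. The targets of PPARalpha hold 7 filled red points and 1 filled blue point, and those of ATF4 and CHOP hold 2 filled points, both red.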

How the data were processed

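Biotin-labelled liver RNA of 12 samples was measured on single-colour Affymetrix arrays. The authors deposited log2 intensities for 45101 probe sets, made with RMA per the submitters' processing notes, which give no version. Values were used as deposited, with no filter on dim genes. Of the probe sets 34945 name 1 gene, 932 several and 9160 none, and 64 are controls. Each of 18193 genes was represented by the brightest probe set that names it alone. The number of arrays limits the precision.

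All 12 arrays entered a single limma 3.58.1 fit (R 4.3.3), in which each group had its own mean. The 5 comparisons used the two-sided moderated test, with Benjamini-Hochberg adjustment over all genes and a call at an adjusted p under 0.05 (prior 3.8078 and residual 8 degrees of freedom). Intervals are at 95%. The fit was tested on simulated data. Alternatives were other probe sets, scalings, arrays and weights and a replicate block.

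The members and 8 lists were chosen with earlier results of these data known. Named were the members, Nfe2l2 and Nqo1 as checks, up to 3 called genes a list and comparison with the smallest adjusted p, and the 3 genes most like each member. The list genes under the alternatives were added after seeing the data, and Fgf21 was then left out of the test of the difference of effects, since that holds its known wild type difference.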

Additional observations from a re-analysis of the deposited data

Results flagged for a closer look

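Among the members and the genes named beside them, 2 genes had effects of CDDO-Im that differed between the genotypes by limma's test of the difference itself. Nqo1, a quinone reductase read as a check of the compound, had a difference of -2.03, Nrf2 null minus wild type (adjusted p = 5.04e-06). Its wild type CDDO-Im arrays read 7.15, 7.18 and 7.26, and the other 9 arrays lay below the array medians, so the size is uncertain. Ugt2b35, one of the 3 genes most like Fgf21, had a difference of -1.52 (adjusted p = 0.00825). Ugt2b35 was picked for likeness to Fgf21 on these same arrays, so its p is not independent of that choice. Groups of 3 arrays are too small for a test of single outlying arrays.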

How the results depend on the processing

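The 23 member differences with a test and the 2 untested ones of Fgf21 were recomputed in 570 cases. Of these 533 were kept, 5 newly passed and 32 turned direction. A tested difference was kept if its direction and its side of the threshold held. An untested one was kept if its direction held and it moved by less than the SD within groups. This was so in all 23 cases in wild type and all 22 for the difference of effects. Fgf21 between genotypes under CDDO-Im passed in all 23 (-3.11 to -2.56, adjusted p from 0.000185 to 0.00455). Each of these fits shares wild type CDDO-Im arrays with its known difference. The count of called members in wild type was 1 with array weights, 1 without both acinar arrays and 0 to 2 when 1 array was left out, and between genotypes with vehicle it was 1 with array weights and 0 when 1 array was left out. No called member difference turned. The cause of the turned values was not tested. With CDDO-Im in Nrf2 null Fgf21 was 0.02 after a further quantile normalization, 0.01 with medians centred, 0.07 with array weights and 0.00 without both acinar arrays. The difference of effects for Inhbe was 0.27 with array weights and 0.33 without both acinar arrays. Angptl4 was -0.05 in Nrf2 null and -0.03 for the difference of effects by its dimmer probe set, and 0.07 in wild type and 0.00 for the difference without both acinar arrays. The dimmest probe sets gave -0.15 for Klb and -0.03 for Nr3c1 with CDDO-Im in Nrf2 null, and 0.14 and 0.24 for Nfe2l2 between genotypes with vehicle and CDDO-Im. With 1 array left out, the ranges of values that turned were -0.30 to 0.29 (Fgf21, Nrf2 null), -0.58 to 0.14 (Igfbp1, vehicle), -0.43 to 0.56 (Igfbp1, between genotypes under CDDO-Im), -0.07 to 0.20 (Igfbp2, Nrf2 null), -0.02 to 0.29 (Igfbp2, between genotypes under CDDO-Im), -0.10 to 0.07 (Angptl4, wild type) and -0.01 to 0.13 (Angptl4, Nrf2 null). For the difference of effects they were -0.11 to 0.89 (Igfbp1), -0.57 to 0.09 (Igfbp2), -0.01 to 0.16 (Angptl4) and -0.42 to 0.26 (Inhbe).

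Same-numbered arrays did not deviate together, with r over 0.1 in 4 of 18 pairs (-0.30 to 0.28), so the numbers were not taken as pairs. With the replicate number as a block, all 30 counts and differences of members kept their direction and side, with Fgf21 at -2.76 between genotypes under CDDO-Im (adjusted p = 0.000201) and 1 member called there and 0 in the other 4 comparisons. Over all genes 323 were called in wild type with the block and 332 without it. Array weights called 2023 there and 1477 between genotypes with vehicle, where 71 were called without weights, and without both acinar arrays 1293 were called in wild type. The difference of effects was not run on the compared arrays alone, since it needs all 4 groups.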
